A study of Mus musculus with 6 samples.

Results

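The genes described here are 10 markers of dentate granule cells, measured by poly(A) RNA sequencing of mouse hippocampus in 6 libraries. They are Prox1, C1ql2, Dsp, Lct, Stxbp6, Npnt, Tdo2, Plk5, Glis3 and Trpc6, picked by symbol from a table of 55411 annotated genes, and all 10 were present. The study gave clothianidin (CLO), a neonicotinoid insecticide, to C57BL/6N male mice at 50 mg/kg/day and asked about effects on the next generation. The 3 CLO libraries and the 3 vehicle control libraries were made from hippocampal RNA, which the protocol says came from offspring. The labels give no sex, age, litter, sire or batch, so each p-value reflects only how far these 6 libraries spread, and that spread may be technical.

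Granule cells are the principal neurons of the dentate gyrus, the entry station of the hippocampal circuit. They receive input from the entorhinal cortex and send their axons, the mossy fibers, to CA3 pyramidal neurons and hilar mossy cells. The dentate gyrus also adds granule cells in adult rodents. In RNA from whole hippocampus, fewer granule cells and less RNA per granule cell cannot be told apart. Some of the 10 genes are also known from other cells, for example Prox1 from some interneurons, and the libraries hold all of these cells together.

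The promoters of 4 members are shown because these genes carry the contrasts described below. Prox1 and Dsp were both highest in control replicate 3 and lowest in control replicate 1 and CLO replicate 3. Lct followed another order, and C1ql2 had the highest level. Each line is the RefSeq window on GRCm38.p6 from 250 bases before to 50 after the annotated start, on the strand of the gene, and capitals mark each CG dinucleotide. All 10 members matched the table by symbol, with 12 windows, and for Prox1 the upstream one of its listed starts is shown.
Prox1, chr1:190170778-190171077, minus strand: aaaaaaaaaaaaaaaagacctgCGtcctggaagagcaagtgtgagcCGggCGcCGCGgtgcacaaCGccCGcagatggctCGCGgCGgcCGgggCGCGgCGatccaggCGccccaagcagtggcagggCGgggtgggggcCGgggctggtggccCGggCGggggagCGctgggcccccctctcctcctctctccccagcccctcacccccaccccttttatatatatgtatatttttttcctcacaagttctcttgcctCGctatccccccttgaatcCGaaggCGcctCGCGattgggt
Dsp, chr13:38151044-38151343, plus strand: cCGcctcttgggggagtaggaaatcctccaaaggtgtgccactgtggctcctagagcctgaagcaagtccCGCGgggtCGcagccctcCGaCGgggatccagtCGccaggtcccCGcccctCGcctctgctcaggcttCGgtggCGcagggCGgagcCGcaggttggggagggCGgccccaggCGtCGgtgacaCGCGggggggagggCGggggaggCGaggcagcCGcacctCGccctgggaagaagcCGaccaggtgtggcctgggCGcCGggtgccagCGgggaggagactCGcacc
C1ql2, chr1:120340332-120340631, plus strand: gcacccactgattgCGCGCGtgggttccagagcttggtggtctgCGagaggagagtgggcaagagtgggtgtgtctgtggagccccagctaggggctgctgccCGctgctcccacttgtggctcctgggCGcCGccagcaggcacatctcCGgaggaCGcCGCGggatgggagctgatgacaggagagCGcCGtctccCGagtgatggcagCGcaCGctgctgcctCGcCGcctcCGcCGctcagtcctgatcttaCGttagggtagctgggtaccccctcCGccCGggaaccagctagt
Lct, chr1:128328269-128328568, minus strand: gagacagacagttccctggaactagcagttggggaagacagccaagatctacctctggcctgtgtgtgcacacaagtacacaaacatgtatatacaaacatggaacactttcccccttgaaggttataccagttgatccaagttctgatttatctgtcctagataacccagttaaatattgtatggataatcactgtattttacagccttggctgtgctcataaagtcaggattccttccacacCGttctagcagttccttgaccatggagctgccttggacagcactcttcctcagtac
The Prox1, Dsp and C1ql2 windows held 25, 27 and 23 CG dinucleotides, while the Lct window held 1. The median over 32851 promoter windows of the same table was 7, and 14.1% of them had as few as Lct. Among the other members, Tdo2 had 4, and Stxbp6, Npnt, Plk5, Glis3 and Trpc6 had between 17 and 32 at their starts. The sequence CAGATG, searched on both strands, was present in 1 of the 12 member windows, that of Prox1 shown above, and in 17.2% of all windows.

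All 10 members were detected in all 6 libraries, with counts from 19 (Glis3 in CLO replicate 3) to 3688 (C1ql2 in control replicate 3). Levels of different genes are compared here on the authors' TPM (transcript abundance corrected for gene length and library total). C1ql2, which encodes a secreted C1q-like protein of mossy fiber terminals, was far above the rest, at 109, 115 and 159 TPM in control replicates 1 to 3 and 147, 162 and 117 TPM in CLO replicates 1 to 3. Its lowest library was above the highest library of each other member. Stxbp6 (mean of 16.7 TPM over all libraries), Prox1 (13.4), Lct (12.2), Plk5 (8.66), Npnt (8.14), Dsp (5.96), Trpc6 (4.29) and Tdo2 (2.85) followed, and each overlapped its neighbour in this order. Glis3 was lowest, at 0.212 to 0.948 TPM, below the lowest library of Tdo2 (1.62 TPM).

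**Figure D1:**
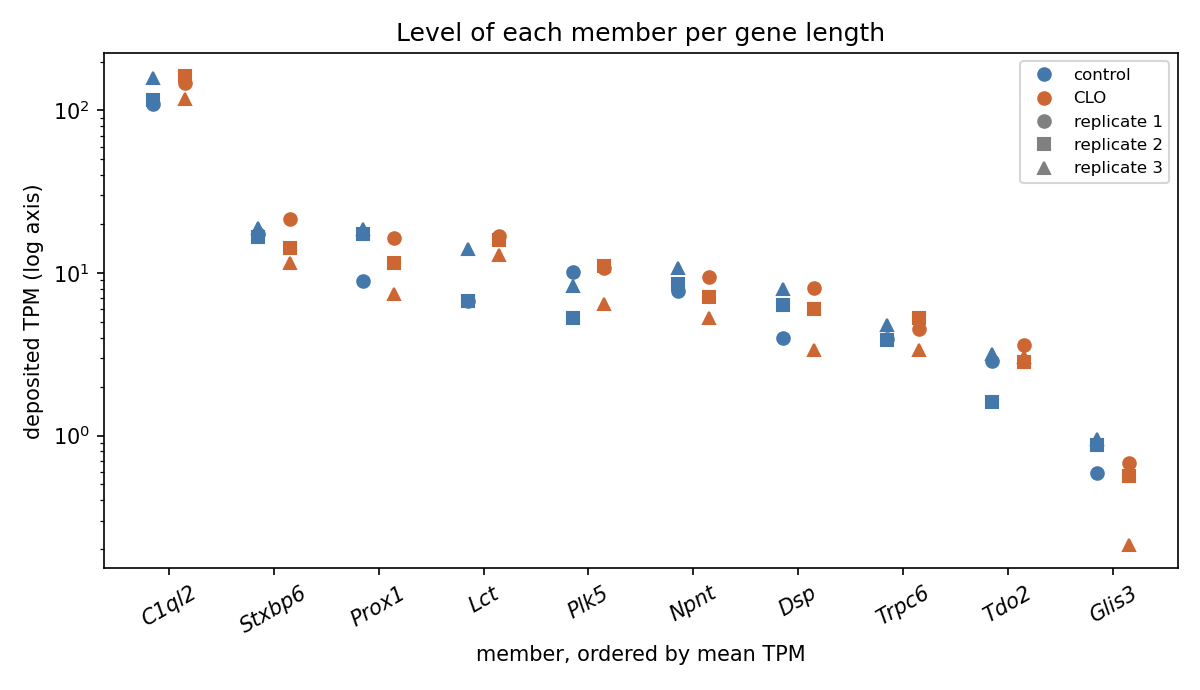
Deposited TPM of the 10 members (log axis) in each library, with control in blue, CLO in orange and the replicate given by the marker shape. C1ql2 stands at 109 to 162 TPM, Glis3 at 0.212 to 0.948 TPM, and the 8 genes between them overlap their neighbours.

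Comparisons between libraries use TMM-scaled CPM (read counts divided by a TMM-adjusted library size), and a fold change is CLO over control. No member passed between CLO and control. Over all 16129 genes tested with edgeR's quasi-likelihood test, 0 (0%) had a Benjamini-Hochberg adjusted p below 0.05, and 2167 (13.4%) had an unadjusted p below 0.05. Of the 10 members, all of which passed the filter on low counts, 1 had an unadjusted p below 0.05 by edgeR, namely Lct. In all, 5 members had higher and 5 had lower mean values in CLO, beside 51.8% of all genes with a lower value, and their median log2 fold change was 0.09, beside -0.01 for all genes tested. DESeq2 called 206 genes (1.38%) and 0 members, edgeR with no filter on low counts 699 genes (2.56%) and 1 member, Lct, and limma-voom with quality weights per sample 3473 genes (21.5%) and 2 members, Lct and Plk5. The groups did not overlap for 1 of 10 members in CPM, again Lct, beside 14.5% of all genes. In TPM they overlapped for each member, beside 11.1% of all genes that did not overlap. For each of the 10 members the highest control library exceeded the lowest control library by more than the fold between the group means. The share of all genes for which this held was not counted.

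Facts about the libraries bear on these values. The control libraries held 25232305 to 26812580 counts and the CLO libraries 19637402 to 21189231. Control replicates 1 and 2 held 300 and 121 counts of 7 spermatid genes, which are markers of the testis, and each other library held 5 or fewer. The same control libraries had the highest values of the neocortex marker list (deviations of 0.80 and 0.52 log2 units from the mean of all libraries), whereas control replicate 3 was at -0.18 and CLO replicates 1 to 3 were at -0.01, -0.46 and -0.67. The fold change also followed gene length: its median was 0.27 log2 units among the shortest quintile of all genes and -0.25 among the longest quintile (7597 bp and more). Over the longest quintile, control replicate 2 was highest (0.28) and CLO replicate 3 lowest (-0.29), with control replicate 1 at -0.02. Member values are therefore also given with the length trend of each library removed and without control replicates 1 and 2.

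Prox1, the homeobox transcription factor that specifies granule cells and maintains their identity, was at 30.4, 62.0 and 69.2 CPM in control replicates 1 to 3 and at 54.9, 46.6 and 32.0 CPM in CLO replicates 1 to 3. Control replicates 2 and 3 were above all 3 CLO libraries and control replicate 1 was below them, so the groups overlapped through that library. Control averaged 53.9 ± 20.7 CPM and CLO 44.5 ± 11.6 CPM (SD, n = 3). The log2 fold change was -0.28 ± 0.28 (SE; 95% interval -0.88 to 0.33), and edgeR gave an adjusted p of 0.654. Its size depended on single libraries, from -0.57 without control replicate 1 to -0.05 without control replicate 3. With the length trend removed it was -0.11. Prox1 lies on chromosome 1 from 189850232 to 189902911 (GRCm39, minus strand, deposited length 8392 bp). It overlaps Prox1os and Gm28172 on the other strand, which had at most 71 counts in any library.

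Glis3, a Krüppel-like zinc finger transcription factor, was the other transcription factor among the members and had the lowest counts. It was at 2.09, 3.25 and 3.73 CPM in the control libraries and at 2.41, 2.40 and 0.970 CPM in the CLO libraries. CLO replicate 3, with 19 counts, stood below the others, and control replicate 1 lay below CLO replicates 1 and 2. The log2 fold change was -0.64 ± 0.35 (SE; 95% interval -1.41 to 0.12; edgeR adjusted p = 0.426), the lowest among the members. Leaving out control replicate 1 took it to -0.86, and leaving out CLO replicate 3 to -0.32. With the length trend removed it was -0.47.

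Dsp, which encodes desmoplakin, the plaque protein that anchors intermediate filaments to desmosomes, shared its highest and lowest libraries with Prox1. It was at 15.7, 26.3 and 34.7 CPM in control and at 31.5, 27.9 and 16.9 CPM in CLO, so that control replicate 1 and CLO replicate 3 were again the lowest libraries. Control replicate 2, above all CLO libraries for Prox1, was below CLO replicates 1 and 2 for Dsp. Each gene varied over 2.2-fold across the libraries, whereas the ratio of Prox1 to Dsp counts stayed between 1.67 and 2.35. Within that narrow range it was 1.94, 2.35 and 2.00 in control and 1.74, 1.67 and 1.90 in CLO, so each CLO library was below each control library. The group means of Dsp were 25.6 ± 9.51 and 25.4 ± 7.65 CPM (SD, n = 3), with a log2 fold change of -0.01 ± 0.28 (SE; 95% interval -0.62 to 0.61; edgeR adjusted p = 0.994). That interval leaves room for a 1.52-fold higher or a 0.65-fold level in CLO.

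Npnt encodes nephronectin, an extracellular matrix ligand of an integrin. Its values were 16.2, 18.7 and 24.9 CPM in control and 19.6, 17.5 and 14.1 CPM in CLO, with control replicate 3 highest and CLO replicate 3 lowest. The log2 fold change was -0.22 ± 0.20 (SE; 95% interval -0.65 to 0.21; edgeR adjusted p = 0.613). Single libraries set its size: leaving out control replicate 3 gave -0.03, leaving out CLO replicate 3 gave -0.10, and leaving out control replicate 1 gave -0.35. Stxbp6, or amisyn, is a syntaxin-binding protein that acts on SNARE complexes in secretion. In CPM it had the smallest fold between its highest and lowest library among the members (1.44), from 31.7 CPM in CLO replicate 3 to 45.7 CPM in CLO replicate 1. In TPM it ran from 11.5 to 21.4 in those libraries, a wider fold than for C1ql2 and Trpc6. The log2 fold change of Stxbp6 was -0.07 ± 0.17 (SE; 95% interval -0.44 to 0.30; edgeR adjusted p = 0.869).

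Lct had the highest fold change of the members. It encodes lactase, an enzyme best known from the intestinal brush border and used as a granule cell marker in the mouse brain. Its values were 17.8, 18.6 and 41.2 CPM in control replicates 1 to 3 and 44.5, 50.3 and 43.7 CPM in CLO replicates 1 to 3. Control replicates 1 and 2 were low, and control replicate 3 was just below the lowest CLO library. In TPM, control replicate 3 (14.1 TPM) lay above CLO replicate 3 (12.9 TPM), so the groups overlapped on that scale. Control averaged 25.9 ± 13.3 CPM and CLO 46.1 ± 3.60 CPM (SD, n = 3), which is 1.78-fold. The log2 fold change was 0.83 ± 0.27 (SE; 95% interval 0.23 to 1.43), and edgeR gave an unadjusted p of 0.0105, rank 582 of all genes, and an adjusted p of 0.291.

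The Lct difference rested on control replicates 1 and 2, the libraries with spermatid transcripts and high neocortex markers. The lists of thalamus and habenula (0.48 and 0.29) and of GABAergic interneurons (0.37 and 0.29) were also highest in these libraries. The other granule cell markers were at -0.11 and 0.15 there. Without control replicate 3 the Lct difference was 1.34 log2 units and passed by edgeR (adjusted p = 0.0324), as 1 of 20 genes (0.122%) that did so there. Without control replicates 1 and 2 it was 0.16 (95% interval -0.28 to 0.61; edgeR adjusted p = 0.821), a fit in which the lone control is assumed to vary like the CLO libraries. With the length trend removed it was 0.94 (edgeR adjusted p = 0.463). What part the cortical or other tissue had in the Lct values was not tested. Lct lies on chromosome 1 from 128212493 to 128256055 (GRCm39, minus strand, 6559 bp).

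C1ql2 was at 87.9, 97.4 and 142 CPM in control and at 118, 155 and 121 CPM in CLO. As for Lct, control replicates 1 and 2 were the lowest libraries, but control replicate 3 was the second highest. The means were 109 ± 28.7 and 131 ± 20.6 CPM (SD, n = 3), with a log2 fold change of 0.27 ± 0.19 (SE; 95% interval -0.16 to 0.69; edgeR adjusted p = 0.538). Leaving out control replicate 1 or CLO replicate 2 gave 0.13 and leaving out control replicate 3 gave 0.50, and without control replicates 1 and 2 it was -0.11. C1ql2 is also the shortest member (1999 bp), and with the length trend removed its value was 0.11.

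Tdo2 encodes tryptophan 2,3-dioxygenase, which opens the kynurenine pathway of tryptophan breakdown. Its values were 4.52, 2.65 and 5.49 CPM in control and 5.56, 5.24 and 6.08 CPM in CLO, with control replicate 2 standing low. The log2 fold change was 0.41 ± 0.26 (SE; 95% interval -0.15 to 0.98; edgeR adjusted p = 0.481), and it was 0.17 without control replicate 2 and 0.65 without control replicate 3. Plk5, a member of the polo-like kinase family with a brain expression pattern, was likewise lowest in control replicate 2. Control stood at 10.9, 6.02 and 9.95 CPM, and CLO at 11.5, 14.1 and 8.94 CPM. The log2 fold change of Plk5 was 0.36 ± 0.24 (SE; 95% interval -0.17 to 0.89; edgeR adjusted p = 0.511), and it ran from 0.15 without control replicate 2 to 0.52 without control replicate 1. Trpc6, a cation channel opened downstream of phospholipase C, ranged from 8.01 CPM in control replicate 1 to 12.8 CPM in CLO replicate 2. Its log2 fold change was 0.18 ± 0.21 (SE; 95% interval -0.27 to 0.63; edgeR adjusted p = 0.705).

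**Figure D2:**
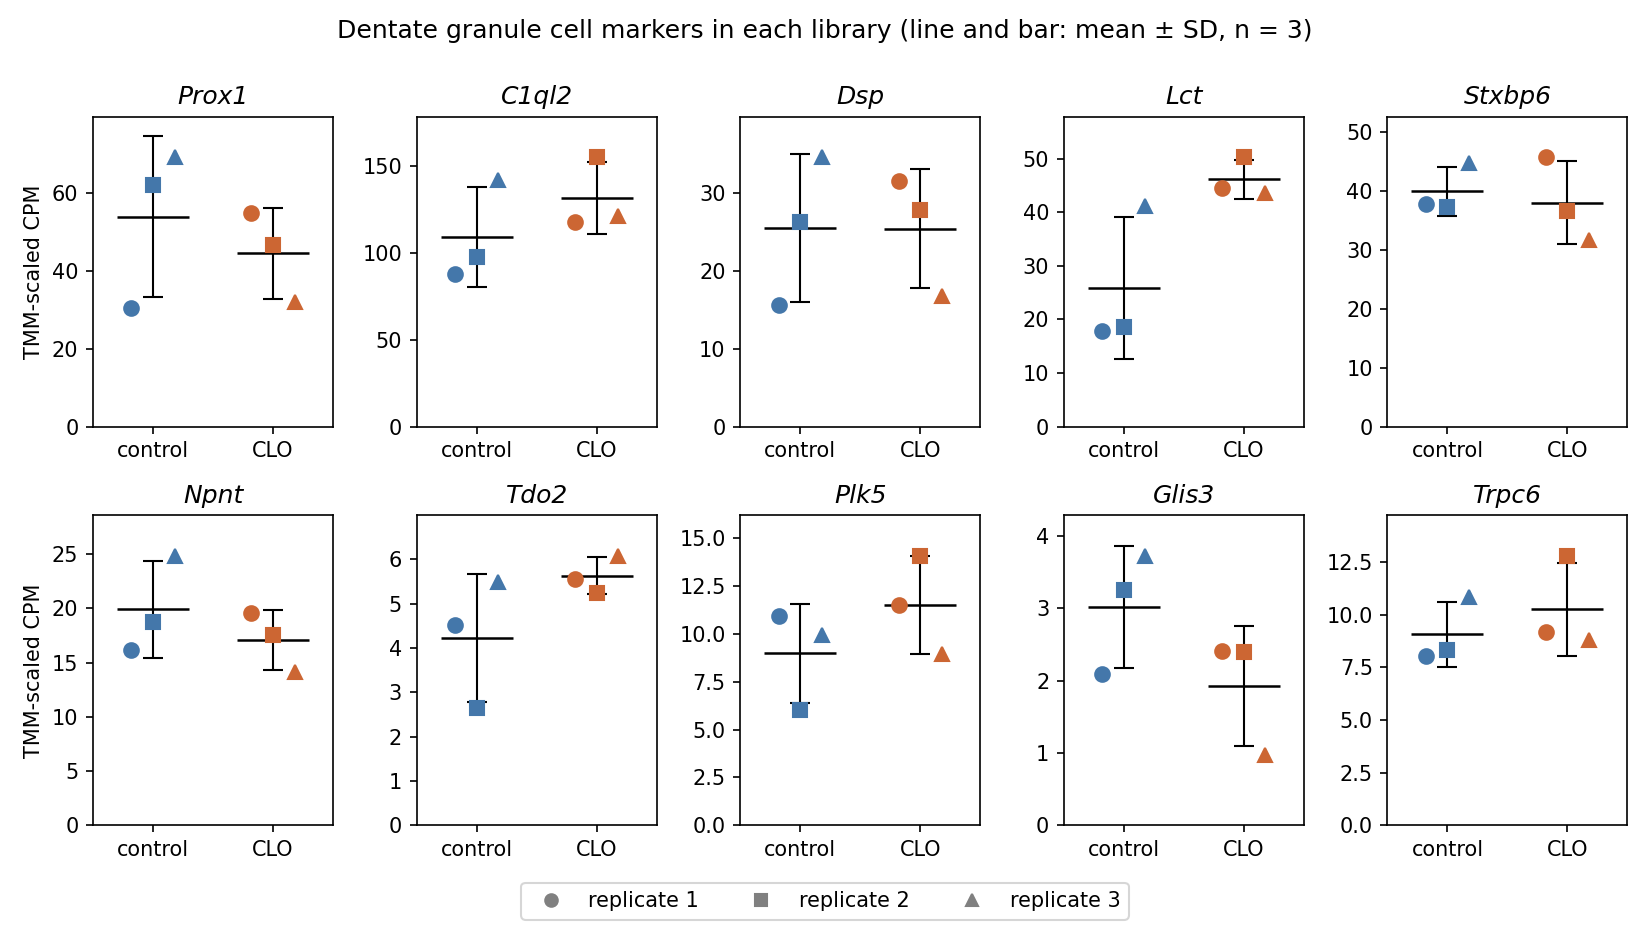
TMM-scaled CPM of each member in each library (vertical axes start at 0), with control in blue, CLO in orange, the replicate given by the marker shape, and lines and bars for the mean ± SD (n = 3). Lct is the only member whose groups do not overlap on this scale, with control replicate 3 at 41.2 CPM and the lowest CLO library at 43.7 CPM.

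The members did not vary as one set. Control replicate 3 was above control replicate 2 for 10 of 10 members and above control replicate 1 for 9, and CLO replicate 2 was above CLO replicate 3 for 9. The shares of all genes with these orders were not counted. Of the 15 other granule cell markers described below, 6 were highest in control replicate 2 and 5 in control replicate 3. Beyond the shared orders the members parted. Prox1, Dsp, Glis3 and Npnt were highest in control replicate 3. In CLO replicate 3 the deviations from the mean of all libraries were -0.55 for Prox1, -0.53 for Dsp and -1.17 for Glis3, but 0.39 for Lct and 0.34 for Tdo2. In control replicate 2 they were 0.40 for Prox1, 0.49 for Glis3 and 0.11 for Dsp, but -0.83 for Lct, -0.82 for Tdo2 and -0.71 for Plk5. Prox1, Dsp and Glis3 lie in the longest quintile, where all genes had medians of -0.29 in CLO replicate 3 and 0.28 in control replicate 2. Lct lies in a quintile with medians of -0.10 and 0.10 in these libraries and went the other way. The part of gene length in these deviations was not tested. The summed level of the 10 members was 231 to 386 CPM in control and 284 to 368 CPM in CLO.

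Ratios between members were compared within each library, where the scaling factor of the library cancels. The length trend of a library does not cancel between genes of unlike length, such as C1ql2 (1999 bp) and Glis3 (8842 bp). No ratio was computed with that trend removed. The ratio of Prox1 to Lct counts was 1.71, 3.32 and 1.68 in control and 1.23, 0.926 and 0.733 in CLO, so that it was lower in each CLO library than in each control library. The ratio of Lct to Npnt was 1.10, 0.996 and 1.66 in control and 2.27, 2.87 and 3.09 in CLO. Of the 45 ratios between members, 14 (31.1%) had groups that did not overlap, beside 16% of the ratios between all genes tested. These 14 are not independent, since Lct took part in 7 and Glis3 in 5. They did not sort the members into fixed sides: the ratios of Prox1 to Dsp, Prox1 to Glis3 and Dsp to Glis3 were among them, whereas the groups overlapped for the ratios of Prox1 and of Dsp to Tdo2 and to Plk5. A ratio shows unequal change, not which gene changed.

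**Figure D3:**
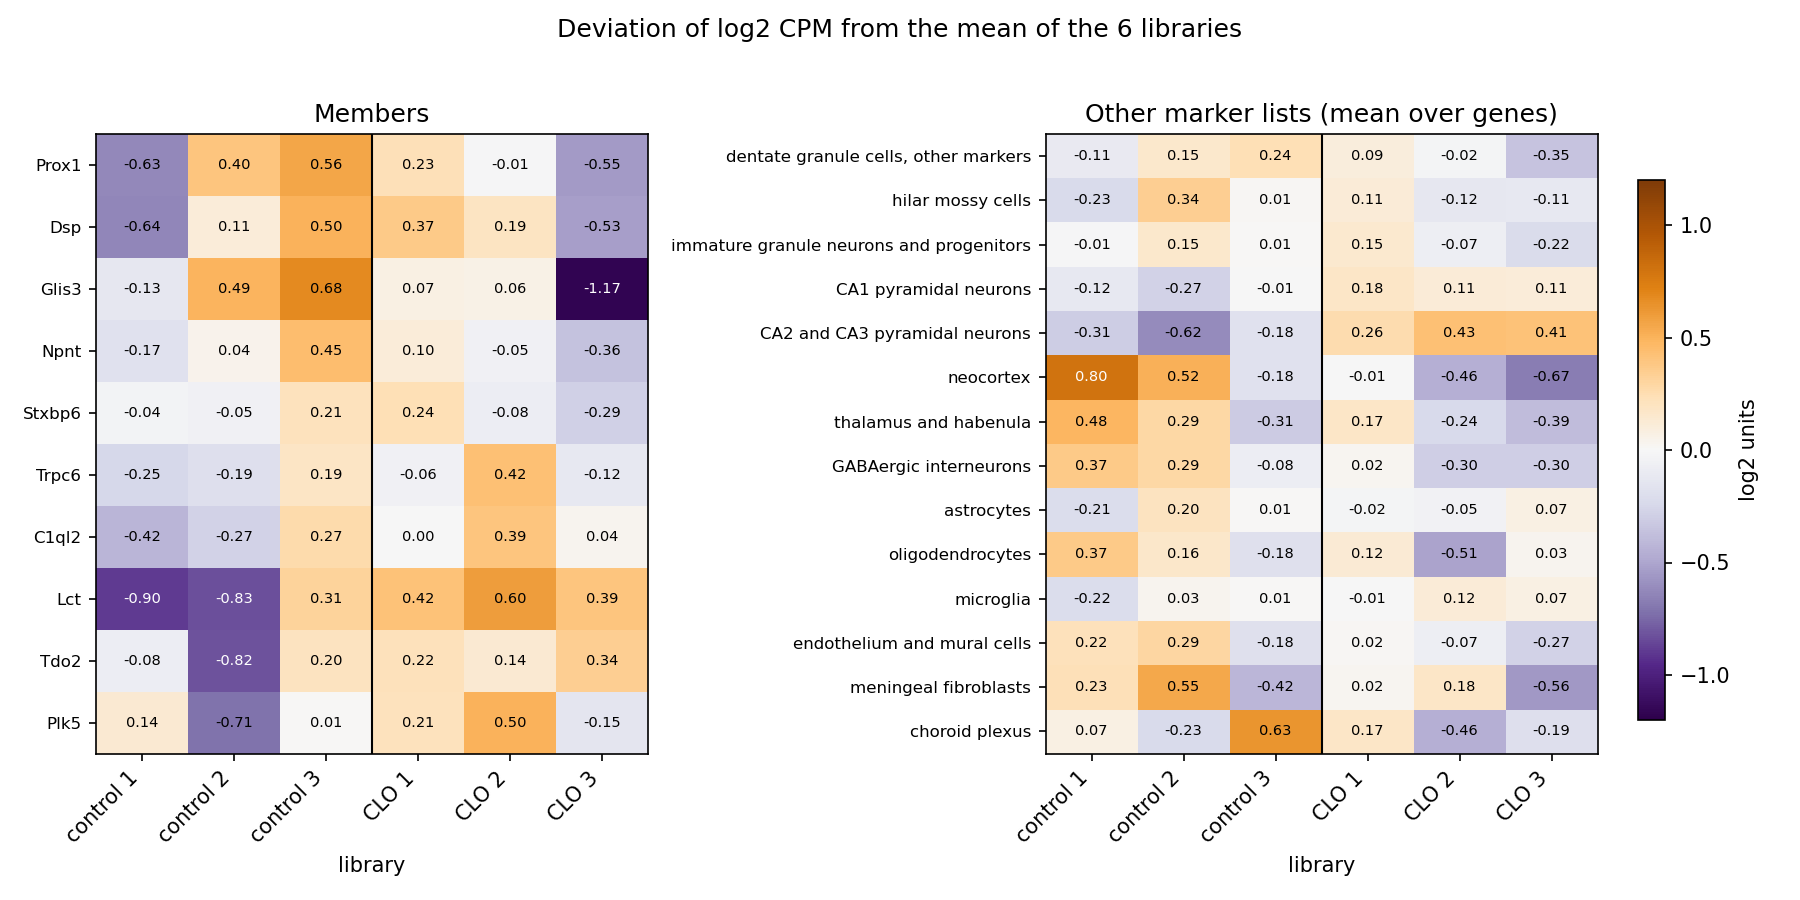
Deviation of log2 CPM from the mean of the 6 libraries (colour and printed value, in log2 units; libraries in columns, control left of the line) for the 10 members and, as the mean over genes, for 14 other marker lists. Prox1 and Dsp are low in control replicate 1 and CLO replicate 3. Lct is low in control replicates 1 and 2, and the neocortex list, among others, is highest in those same control libraries.

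Over the 6 libraries, the genes outside the members whose centred log2 CPM differed least from that of Prox1, among 8746 genes with a mean of at least 10 CPM, were Shisa6, Vash1 and Atg9a, with root mean square differences of 0.069, 0.080 and 0.087 log2 units. Shisa6, which encodes an auxiliary subunit of AMPA receptors, was at 32.2, 67.8 and 69.6 CPM in control and 63.6, 47.2 and 34.6 CPM in CLO. The genes nearest to Lct were Drd5, Strip2 and Homer3, at differences of 0.20, 0.24 and 0.24. Drd5, which encodes a dopamine receptor, was at 7.06, 8.97 and 15.8 CPM in control and 14.9, 16.5 and 14.5 CPM in CLO. Homer3 is on the CA2 and CA3 list used here and not a granule cell marker. This likeness over 6 libraries is a description and was not tested.

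The 15 other markers of dentate granule cells on the list used here likewise went both ways, with 4 higher and 11 lower in value, 0 passed by edgeR in either direction (0% of all genes), and a median log2 fold change of -0.16. Leaving out CLO replicate 1 moved that median to -0.32, control replicate 1 to -0.29 and CLO replicate 3 to -0.05. By unadjusted p under 0.05 in edgeR they counted 2 of 15 (Igfbp5 and Tiam1, both lower in value), beside 13.4% of all genes tested. Igfbp5, an insulin-like growth factor binding protein, was at 98.3, 169 and 112 CPM in control and 108, 80.5 and 62.3 CPM in CLO (-0.60, edgeR adjusted p = 0.334). Tiam1, which encodes a Rac activator, was at 56.6, 102 and 81.7 CPM in control and 67.2, 53.0 and 35.8 CPM in CLO (-0.62, edgeR adjusted p = 0.334). Dgkh, which encodes a diacylglycerol kinase, was at 33.6, 47.8 and 47.4 CPM in control and 43.2, 28.5 and 17.6 CPM in CLO (-0.53, edgeR adjusted p = 0.406). In all 3 of these genes CLO replicate 3 was the lowest library, and the groups overlapped. Of the 15 genes, 9 had their lowest value in CLO replicate 3, as had Npnt, Stxbp6 and Glis3 among the members. Several of the 9, Tiam1 and Dgkh among them, lie in the longest quintile, over which CLO replicate 3 was also lowest for all genes (-0.29). The share of all genes lowest in that library was not counted. C1ql3, the partner of C1ql2 at mossy fiber synapses, was between 138 and 174 CPM in all libraries (-0.04), and Calb1, which encodes calbindin, between 132 and 165 CPM (0.14).

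The granule cell markers were also compared by gene length. Of the 10 such markers in the longest quintile (the members Prox1, Dsp and Glis3 and 7 others), 9 were lower in value in CLO at a median of -0.30, beside 82.1% of all genes of that length. The 15 shorter markers went both ways, with 8 higher and 7 lower values and a median of 0.14, beside 44.2% of all shorter genes with a lower value. Among them, 5 of the 7 members were higher, and 5 of the 8 other markers were lower. With the length trend removed, 4 of the 10 long markers were lower and their median was 0.04, whereas 5 of the 8 shorter other markers were lower as before, at a median of -0.17. The median of the 10 members was then 0.15, and that of the 15 other markers 0.04. Lct went against the length trend: at 6559 bp it lies in a length quintile with a median of -0.10.

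**Figure D4:**
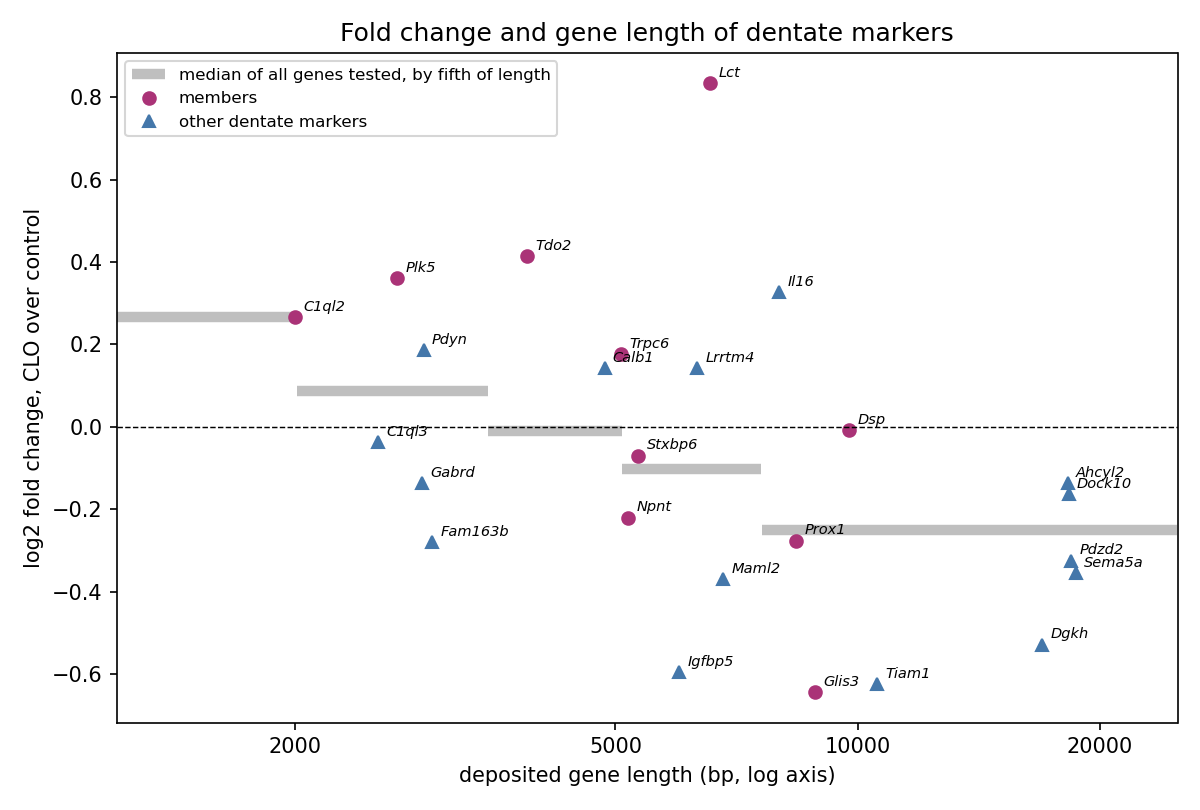
Log2 fold change (CLO over control) of the 10 members (circles) and of 15 other granule cell markers (triangles) against the deposited gene length in bp (log axis), with grey bars for the median of all genes tested in each quintile of length. The bars fall from 0.27 to -0.25, the 3 members over the last bar are Prox1 at -0.28, Dsp at -0.01 and Glis3 at -0.64, and Lct stands at 0.83, above all bars.

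Lists for neighbouring cells gave the following values beside the members. The 8 CA2 and CA3 markers had 8 higher values (median 0.63), and the 8 CA1 markers 4 higher and 4 lower (median 0.10). Their summed levels were 197 to 290 CPM in control and 338 to 400 in CLO for CA2 and CA3, and 724 to 847 and 841 to 853 CPM for CA1. All 12 neocortex markers had lower values (median -0.85), with summed levels of 266 to 457 CPM in control and 200 to 287 in CLO. Of the 4 hilar mossy cell markers, 2 were higher and 2 lower (median -0.02), and of 9 tested genes of immature granule neurons and progenitors 4 were higher and 5 lower (median -0.24). No gene of these lists was at 0 in all libraries, and 0 of them passed by edgeR (0% of all genes). At an unadjusted p under 0.05 in edgeR the lists had 7, 2, 7, 0 and 3 genes in the order given, beside 13.4% of all genes tested. Of the other lists, values were higher and lower for 1 and 7 genes of thalamus and habenula, 0 and 8 of GABAergic interneurons, 2 and 3 of astrocytes, 0 and 5 of oligodendrocytes, 4 and 1 of microglia, 1 and 5 of endothelium and mural cells, 1 and 7 of meningeal fibroblasts and 1 and 2 of choroid plexus. The part of these cells in the member values was not tested.

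**Figure D5:**
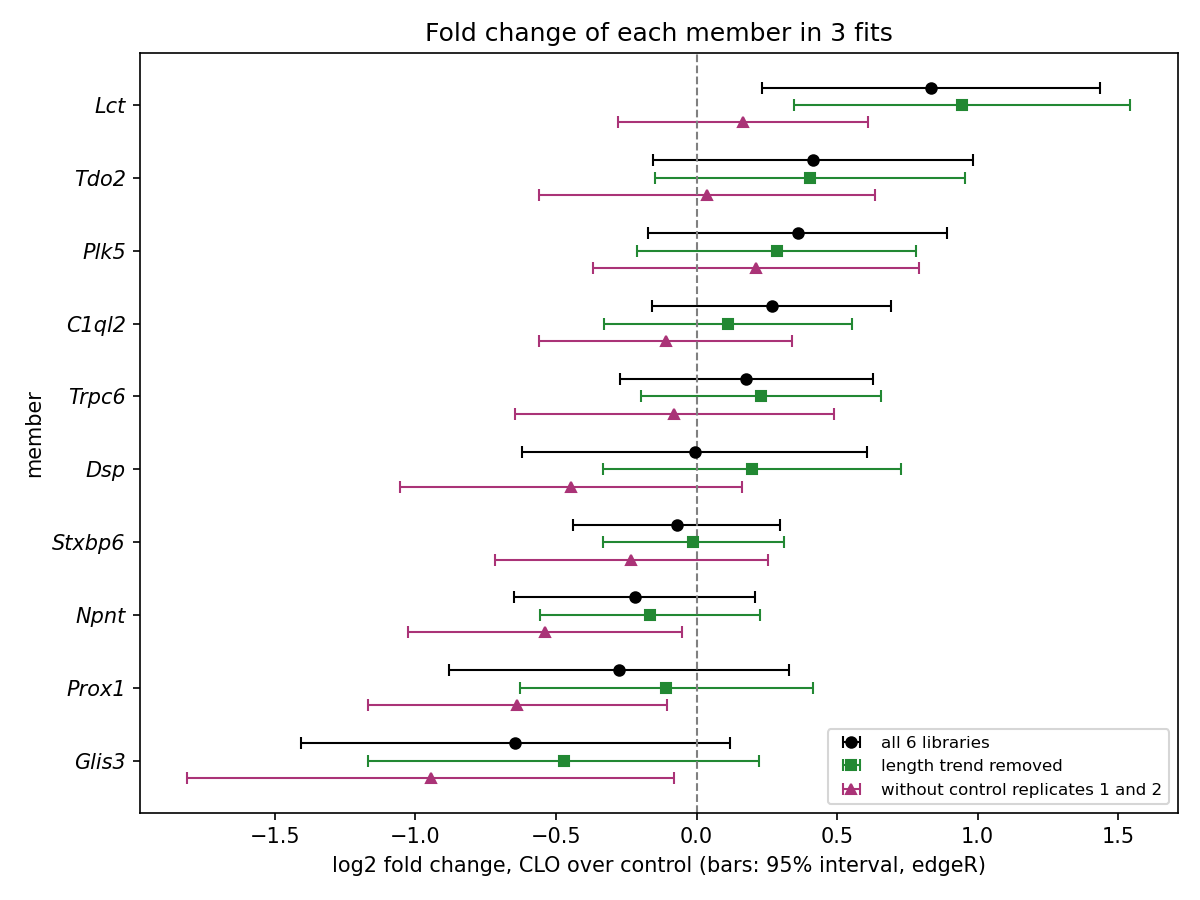
Log2 fold change (CLO over control) of each member with its 95% interval by edgeR, with all 6 libraries (circles), with the length trend removed (squares) and without control replicates 1 and 2 (triangles). The interval of Lct excludes 0 with all libraries (0.23 to 1.43). In the fit without control replicates 1 and 2, control replicate 3 is the lone control and is assumed to vary like the CLO libraries. The length trend is not removed there. In that fit 3 members are higher and 7 lower, with Lct at 0.16, Prox1 at -0.64, Npnt at -0.54 and Glis3 at -0.94.

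Without control replicates 1 and 2, 3 of the members were higher and 7 lower, with a median of -0.17 beside 0.01 for all genes tested. Prox1 was then at -0.64, Npnt at -0.54 and Glis3 at -0.94. This fit rests on control replicate 3 as the lone control, which was the highest library for each of these genes. The length trend was not removed in it. The median of the members, 0.09 with all libraries, lay close to 0 and its sign was not stable. Leaving out control replicate 1 gave -0.01 and CLO replicate 2 gave -0.03, whereas leaving out control replicate 3 gave 0.30 and CLO replicate 3 gave 0.25. By limma on log2(TPM + 1) the median was -0.03.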

How the data were processed

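The members and the lists were chosen with earlier results of these data known. Per the submitters' processing notes the authors used cutadapt 2.9, HISAT2 2.2.0 and featureCounts 2.6.0 with GRCm39; how multiply mapped reads and strand were handled was not given in the sources used here. The authors deposited raw whole-number counts for each gene, and TPM with gene lengths. Each deposited TPM was recomputed from the counts to within 5e-04. Of 56514 rows, 1103 carry no gene annotation (0.64% to 0.78% of counts) and were left out.

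The test was the robust quasi-likelihood test of edgeR 4.0.16 (R 4.3.3) with filterByExpr, TMM factors and no block. It was two-sided, and p-values of 16129 genes were adjusted by Benjamini-Hochberg and held to 0.05. The SE was taken from the fold change and its F statistic. Log2 CPM used a prior count of 2. The fit was also run on simulated counts, which had no length trend and no other tissue in single libraries. That run therefore does not bear on these features of the libraries. The length trend was removed by a lowess curve per library (span 0.3). Stxbp6 and Glis3 overlap genes on their own strand that had 0 counts. DESeq2 1.42.0, limma 3.58.1, other scaling factors, filters and left-out libraries were alternatives. Named genes are the members, up to 3 genes of smallest p per list, and the 3 genes nearest to Prox1 and to Lct. C1ql3 and Calb1 were named after their values were seen. Of the other granule cell markers, 1 is not reported here and enters no list value.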

Additional observations from a re-analysis of the deposited data

How the results depend on the processing

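Of 170 member values under 17 other settings, 155 kept their direction and their side of the threshold. The count of genes past the threshold, 0 of 16129 with all libraries, was 206 by DESeq2, 699 with no filter on low counts and 3473 by limma-voom that weights samples by quality, and 0 to 20 with 1 library left out. The count of members past it, also 0, was 1 with no filter (Lct, adjusted p = 0.00139) and 2 with quality weights (Lct, adjusted p = 0.0172, and Plk5, adjusted p = 0.0384, where 21.5% of all genes passed), and 0 to 1 with 1 library left out (Lct, without control replicate 3). By DESeq2 it was 0, with Lct at an adjusted p of 0.0974. Over its other settings the adjusted p of Lct ran from 0.00139 to 0.918 and that of Plk5 from 0.0384 to 0.99. Dsp, Stxbp6, C1ql2 and Trpc6 changed sign in some settings. Dsp was 0.019 by limma-voom and 0.20 with the length trend removed. C1ql2 was 0.27 and Trpc6 0.18 with all libraries, and without control replicates 1 and 2 they were -0.11 and -0.079. With 1 library left out, Dsp ran from -0.27 to 0.28, Stxbp6 from -0.22 to 0.048 and Trpc6 from -0.012 to 0.33. Beyond these and the left-out libraries named above, the cause was not tested.

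With the replicate number as a block (replicate block) 0 genes and 0 members passed by edgeR, 1874 genes had an unadjusted p below 0.05, and Dsp was 0.020. The deviations of same-numbered libraries from their group means correlated at -0.16, -0.09 and 0.28. Those of differently numbered libraries ran from -0.38 to 0.43. With 3 libraries a group, these values cannot tell whether the numbers pair the libraries.

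With 3 libraries a group, counts of 19 to 97 for Glis3 and 71 to 143 for Tdo2 add counting error to the spread.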
